A study of Mus musculus with 12 samples.

Results

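Collagens are the main structural proteins of the extracellular matrix, and 44 genes of the counted table of 21556 genes encode collagen chains by their symbol (Col, a number, a and a number). All 44 genes of the annotation with such a symbol were in the table. The 44 genes were grouped into 11 that encode chains of fibrillar collagens, 6 of basement membrane (type IV) collagen, 9 of fibril-associated collagens (FACIT) and 18 of other kinds. The last group held 6 beaded filament (type VI) chains, 3 network chains, 1 anchoring fibril chain, 4 transmembrane chains, 2 multiplexins and 2 remaining genes.

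Collagen chains are made in the endoplasmic reticulum, where their prolines and lysines are hydroxylated, and wind into a helix of like or unlike chains before secretion. Outside the cell, fibrillar procollagens lose their terminal propeptides and are cross-linked into fibrils, whereas type IV collagen forms the sheet of basement membranes. In skin, dermal fibroblasts make most fibrillar collagen, and transforming growth factor β (TGF-β) is a cytokine known for driving fibroblasts towards contractile, matrix-producing myofibroblasts.

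RNA was sequenced from primary fibroblasts of mouse abdominal skin in 12 libraries, 3 in each of 4 groups. WT fibroblasts came from C57BL/6 mice and Nox4 KO fibroblasts from B6.129-Nox4tm1Kkr/J mice, a germline knockout of the NADPH oxidase Nox4. In each genotype cells were left unstimulated (control) or received TGF-β2 at 10 ng/ml for 24 h, and all cells were starved beforehand. The animals' age and sex for these cultures, and whether replicates were separate animals, were not given in the sources used here, so p-values measure the spread between these libraries, which may be technical. Total counts ranged from 35118344 to 43796260 per library. Levels are given as RPKM, in which counts are scaled by exon length and by the library total. A gene passed when its adjusted p-value was under 0.05 in edgeR's quasi-likelihood test fitted over all genes with a mean of at least 1 RPKM in a compared group, and was counted again when it also changed at least 2-fold.

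The fibroblast label was checked against markers: each of 8 fibroblast genes had a mean above 1 RPKM, although Pdgfra, a growth factor receptor of resting fibroblasts, stood at 37.2, 32.4 and 50.0 RPKM in WT control and 3.93, 2.82 and 4.64 RPKM with TGF-β2, and at 29.6, 32.0 and 21.5 RPKM in Nox4 KO control and 3.07, 3.82 and 3.06 RPKM in Nox4 KO with TGF-β2. The summed fibroblast genes went from 4066, 4093 and 4147 RPKM in WT control to 2586, 3521 and 2523 with TGF-β2, without overlap. In Nox4 KO they went from 4023, 4383 and 5001 to 2595, 2724 and 3408 RPKM, also without overlap. Against this, the stimulated mean was higher for Vim in WT (1212 to 1382 RPKM), and for Vim (1325 to 1333) and Fbn1 (132 to 157) in Nox4 KO. None of 7 keratinocyte, 5 Schwann cell and melanocyte, 5 chondrocyte or 4 adipocyte genes reached a mean of 1 RPKM. In 6 endothelial, 4 pericyte and 5 skeletal muscle genes 1 each did (Kdr, Notch3 and Acta1, an actin also made by contractile cells). The summed pericyte genes, mostly Notch3, went from 3.8, 4.11 and 6.72 RPKM in WT control to 1.05, 1.02 and 1.66 with TGF-β2, and from 3.36, 2.82 and 5.26 to 1.36, 1.09 and 1.86 RPKM in Nox4 KO. The muscle sum, nearly all Acta1, went from 59.3, 95.6 and 41.5 to 368, 613 and 275 RPKM in WT and from 103, 85.2 and 85.8 to 566, 466 and 254 RPKM in Nox4 KO. Neither the pericyte nor the muscle sum overlapped between control and stimulated libraries of a genotype. Of 5 myeloid genes 4 did, and their summed level ranged from 22.6 to 105.8 RPKM in WT control, 18.1 to 72.0 in WT with TGF-β2, 18.0 to 81 in Nox4 KO control and 11.6 to 58.3 in Nox4 KO with TGF-β2. Nox4 itself, counted over all its exons, was at 1.48, 1.31 and 2.42 RPKM in WT control, 10.9, 8.56 and 16.3 in WT with TGF-β2, 0.655, 0.636 and 1.4 in Nox4 KO control and 4.54, 4.39 and 6.85 in Nox4 KO with TGF-β2, so reads of the gene were present in every Nox4 KO library, and a sum over all exons does not test the deletion. Both replicate 3 libraries of Nox4 KO, and replicate 2 of WT with TGF-β2, lay farther from their groups than the others: the mean absolute deviation of the collagen genes from the group mean was 0.43 and 0.53 (log2) in the former pair and 0.42 in the latter, against 0.16 to 0.40 elsewhere.

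Collagen genes differed widely in level. Of the 44, 26 had a mean of at least 1 RPKM in some group, 19 of at least 10, 12 of at least 100 and 3 of at least 1000 RPKM. By class, these 26 were 10 fibrillar, 4 basement membrane, 3 FACIT and 9 other genes. The other 18, among them all 4 transmembrane chain genes, were below 1 RPKM. Of these, Col9a1, a cartilage FACIT chain, had no read in any library (0 reads allow up to 3 per library, counting error only), and Col13a1, Col25a1 and Col26a1 had at most 3 reads in any library. Col2a1, the cartilage fibril chain, ranged from 0.0263 to 0.189 RPKM. By the highest group mean, Col20a1 came closest to the limit from below (0.714 RPKM), and Col24a1 (1.55 RPKM) and Col11a2 (1.75 RPKM) came closest from above. Col9a3 and Col10a1, also below 1 RPKM, share exon bases with the neighbouring genes Tcfl5 and Nt5dc1 on the opposite strand (234 and 18 bases), so without knowledge of strand use in counting their reads are uncertain.

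**Figure D1:**
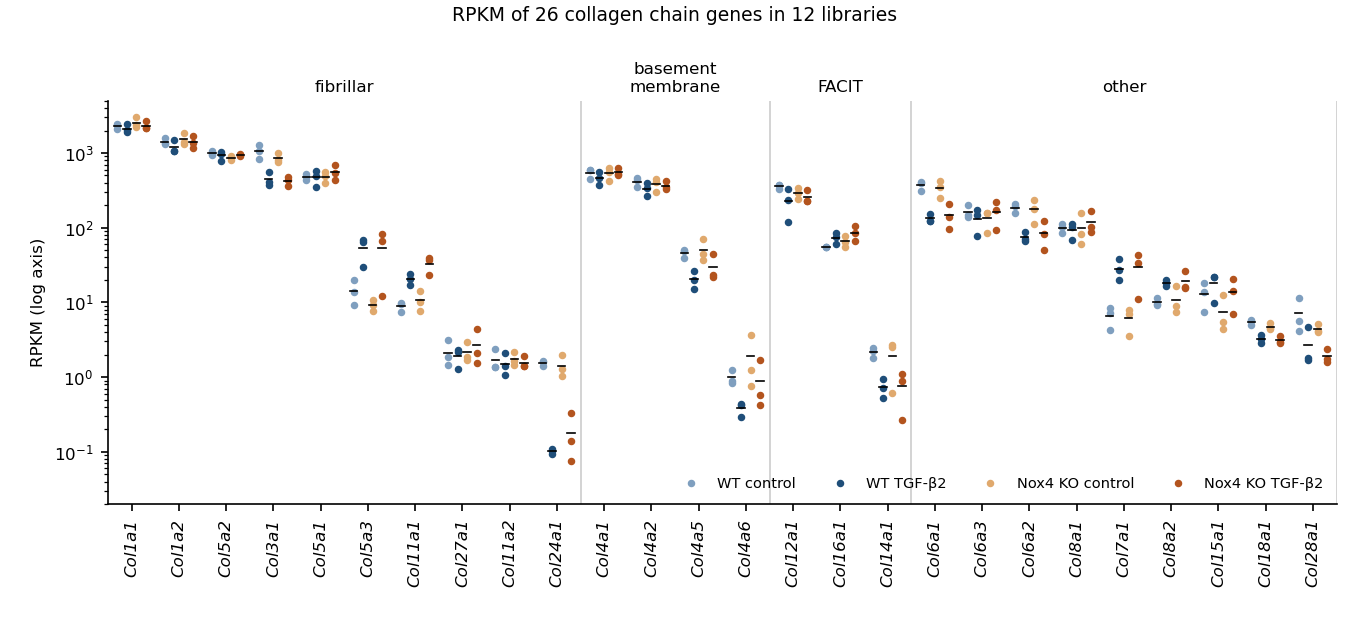
RPKM on a log axis of the 26 collagen chain genes with a group mean of at least 1 RPKM, by class, with 1 point per library, 4 colours for the 4 groups and a bar at each group mean. Col1a1 sits at the top (1909 to 3013 RPKM over the 12 libraries), and Col24a1 has the lowest values (0.0764 to 1.96 RPKM).

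The chains of type I collagen, the bulk of dermal fibrils, led the list. Col1a1 stood at 2463, 2366 and 2116 RPKM in WT control, 2446, 1909 and 2029.8 in WT with TGF-β2, 3013, 2397 and 2212 in Nox4 KO control and 2660.4, 2157 and 2187 in Nox4 KO with TGF-β2. The partner chain Col1a2 was at 1597, 1353 and 1319.8, at 1471, 1070.0 and 1051, at 1867, 1405 and 1312 and at 1698, 1343 and 1156 RPKM in the same order of groups. The 4 groups overlapped for both genes, and the ratio of Col1a1 to Col1a2 RPKM stayed between 1.54 and 1.93 in the 12 libraries. Next came Col5a2, a chain of type V collagen, which copolymerises with type I in fibrils, with a mean of 932 RPKM over all libraries, then Col3a1 (695), Col4a1 (524), Col5a1 (495) and Col4a2 (376 RPKM). Means over libraries of neighbours in this order overlapped in their ranges from Col5a2 to Col4a2, whereas every library of Col1a1 lay above every library of Col1a2.

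Collagen transcripts took 3.62 to 6.10% of all counted reads. The share was 5.90, 5.27 and 5.26% in WT control (mean 5.48 ± 0.365%, SD, n = 3), 5.19, 3.62 and 4.50% in WT with TGF-β2 (4.44 ± 0.786%), 6.10, 5.19 and 4.66% in Nox4 KO control (5.32 ± 0.726%) and 5.6, 4.72 and 4.48% in Nox4 KO with TGF-β2 (4.93 ± 0.585%). In WT, every stimulated library was below every control library, and in Nox4 KO the groups overlapped. Without the 5 most counted other genes in the total, the WT groups overlapped too. No test was run on this sum. Within collagen reads, Col3a1 took 10.8 ± 2.36% in WT control and 5.64 ± 0.456% in WT with TGF-β2, and 8.86 ± 0.290% and 4.76 ± 0.317% in Nox4 KO, with no overlap in either genotype.

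**Figure D2:**
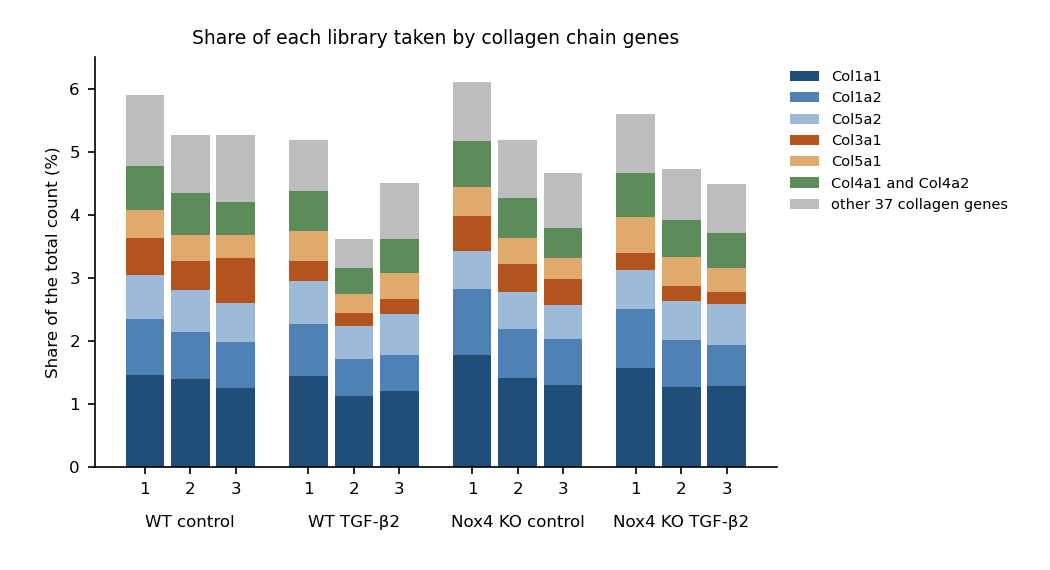
Share of the total count (%) taken by collagen chain genes in each of the 12 libraries, stacked by gene, with the replicate number under each bar. The lowest stack is replicate 2 of WT with TGF-β2 (3.62%), and the highest is replicate 1 of Nox4 KO control (6.10%).

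The question of the TGF-β2 comparisons was which genes respond to the cytokine in fibroblasts with and without Nox4. In WT, 25 collagen genes were tested: 4 rose (Col5a3, Col7a1, Col8a2 and Col11a1), 7 fell (Col3a1, Col4a5, Col6a1, Col6a2, Col14a1, Col18a1 and Col24a1) and 14 did not pass. Among all 10743 genes tested in WT, 12.4% rose and 11.7% fell. With a 2-fold limit, 3 collagen genes rose and 6 fell, beside 2.72% and 4.96% of all genes. The control and stimulated libraries, scaled by TMM, did not overlap for 12 of the 25, beside 46.6% of all genes. The median log2 fold change was -0.16 over the 25 and 0.02 over all genes. From RNA of whole cultures, fewer cells of a type and less RNA per cell cannot be told apart. The summed fibroblast genes and the summed pericyte genes (mostly Notch3) were lower, and Acta1 and its list higher, with TGF-β2 in both genotypes, as given above. Their part in the collagen changes was not tested.

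In Nox4 KO, 26 were tested: 3 rose (Col5a3, Col7a1 and Col11a1), 5 fell (Col3a1, Col6a1, Col18a1, Col24a1 and Col28a1) and 18 did not pass, whereas 15.1% of all 10809 genes rose and 14.9% fell. With a 2-fold limit 3 rose and 3 fell (2.22% and 4.58% of all genes), and libraries did not overlap for 10 of 26 (48.5% of all genes). The median log2 fold change was -0.02 over the 26 and -0.01 over all genes. Same-numbered control and stimulated Nox4 KO libraries varied together, and with the replicate number as a block 18 of the 26 passed, 9 higher and 9 lower, beside 25.2% and 28.8% of all genes. These 18 held the 8 above. The 10 added were Col5a1, Col6a3, Col8a1, Col8a2, Col15a1 and Col16a1, which were higher, and Col4a5, Col4a6, Col6a2 and Col14a1, which were lower. Without both replicate 3 libraries, an alternative chosen after the data were seen, 12 passed, 4 higher and 8 lower, beside 19.9% and 19.4% of all genes in that fit. Leaving out a single Nox4 KO library lowered the count of calls in some cases, as given in the closing section.

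**Figure D3:**
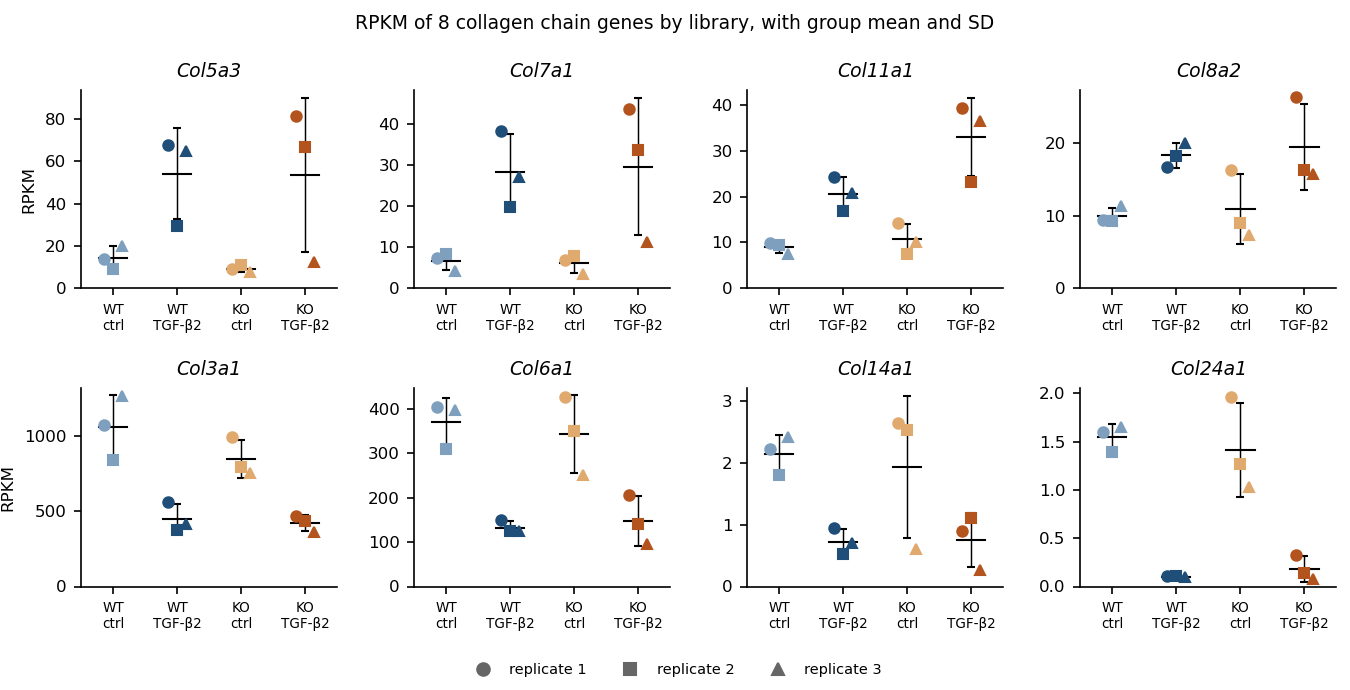
RPKM (linear axes from 0) of 8 collagen chain genes in the 4 groups, with 1 symbol per library by replicate number, and the group mean and SD as a bar. Col5a3, Col7a1, Col11a1 and Col8a2 in the upper row have higher stimulated means in both genotypes, Col3a1, Col6a1, Col14a1 and Col24a1 in the lower row have lower ones, and the triangle of replicate 3 stands apart in Nox4 KO for Col5a3 (12.3 RPKM with TGF-β2).

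Of 10 fibrillar genes tested in each genotype, 2 rose (Col5a3 and Col11a1) and 2 fell (Col3a1 and Col24a1) in WT, and these 4 passed in the same direction in Nox4 KO. Col3a1 encodes the chain of type III collagen, a fibrillar collagen of distensible tissue and early wounds. Its level was 1074, 838 and 1268 RPKM in WT control and 563, 374 and 415 in WT with TGF-β2, and 991, 796 and 754 RPKM in Nox4 KO control and 472, 433 and 361 RPKM in Nox4 KO with TGF-β2. Every stimulated library was below every control library of its genotype. Col3a1 was 2.24-fold lower in WT (log2 fold change -1.16 ± 0.22 (SE), adjusted p = 0.0127) and 1.89-fold lower in Nox4 KO (log2 fold change -0.92 ± 0.15 (SE), adjusted p = 0.00989). It passed with each library left out in turn in both genotypes. Col5a2 lies tail to tail with Col3a1 on chromosome 1, 24614 bases away. Its level was 1053, 983 and 936 RPKM in WT control, 1035, 771 and 978 in WT with TGF-β2, 923, 877 and 799.6 in Nox4 KO control and 924, 930.4 and 976 in Nox4 KO with TGF-β2. It did not pass in WT (log2 fold change -0.03 ± 0.16 (SE), adjusted p = 0.907) or in Nox4 KO (log2 fold change 0.21 ± 0.09 (SE), adjusted p = 0.116).

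Col24a1 encodes a minor fibrillar chain known from developing bone. It was counted with 400, 379 and 476 reads in WT control and 32, 28 and 25 reads with TGF-β2, which is 1.59, 1.39 and 1.65 RPKM and 0.11, 0.104 and 0.0940 RPKM. In Nox4 KO it had 536, 377 and 266 reads in control and 100, 44 and 23 with TGF-β2 (1.96, 1.26 and 1.02 RPKM, and 0.326, 0.141 and 0.0764 RPKM). The groups lay far apart in both genotypes. It was 14.4-fold lower in WT (log2 fold change -3.84 ± 0.17 (SE), adjusted p = 0.000280) and 7.36-fold lower in Nox4 KO (log2 fold change -2.88 ± 0.56 (SE), adjusted p = 0.0144), where it lost the call without replicate 2 of the stimulated libraries (adjusted p = 0.0679).

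Col5a3 and Col11a1 encode minor fibrillar chains that join type V and type XI collagen, which set fibril diameter. Col5a3 stood at 13.9, 9.20 and 20.1 RPKM in WT control, 67.9, 29.5 and 64.9 in WT with TGF-β2, 9.26, 10.9 and 7.74 in Nox4 KO control and 81.2, 66.5 and 12.3 in Nox4 KO with TGF-β2. Stimulated libraries were above the control libraries of their genotype, with replicate 3 of Nox4 KO only just so and below 2 of the WT control libraries. It was 3.96-fold higher in WT (log2 fold change 1.99 ± 0.41 (SE), adjusted p = 0.0158) and 6.10-fold higher in Nox4 KO (log2 fold change 2.61 ± 0.66 (SE), adjusted p = 0.0315). The WT call was lost without control replicate 1 (adjusted p = 0.0626), control replicate 2 (0.0516) or stimulated replicate 1 (0.0556). In Nox4 KO it was lost on leaving out any control library or stimulated replicate 1 or 2 (adjusted p = 0.0825 to 0.0999) and kept without stimulated replicate 3 (adjusted p = 0.00187). The summed myeloid markers were at 58.3, 20.7 and 11.6 RPKM in the 3 stimulated Nox4 KO libraries and at 29.7, 18.1 and 72.0 RPKM in those of WT. Their part in the spread of Col5a3 was not tested.

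Col11a1 was at 9.86, 9.54 and 7.50 RPKM in WT control and 24.3, 16.9 and 20.8 in WT with TGF-β2, and at 14.3, 7.57 and 10.1 RPKM in Nox4 KO control and 39.2, 23.1 and 36.5 RPKM in Nox4 KO with TGF-β2. Neither genotype showed overlap. Its change was 2.4-fold in WT (log2 fold change 1.27 ± 0.19 (SE), adjusted p = 0.00594) and 3.28-fold in Nox4 KO (log2 fold change 1.71 ± 0.29 (SE), adjusted p = 0.0105), and both calls held with any 1 library left out. The 6 other fibrillar genes tested, Col1a1, Col1a2, Col5a1, Col5a2, Col11a2 and Col27a1, had log2 fold changes of -0.19 to 0.04 in WT and -0.07 to 0.42 in Nox4 KO, and none passed. For Col1a1 these were -0.06 ± 0.16 (SE) in WT and -0.04 ± 0.15 in Nox4 KO, with 95% intervals of -0.43 to 0.31 and -0.41 to 0.34. Col5a1, the chain found in most type V molecules, passed only with the block in Nox4 KO (log2 fold change 0.29 ± 0.06, SE, adjusted p = 0.0135).

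The promoters of the fibrillar genes that passed in both genotypes, and of Col7a1 described further on, are shown because each changed in both genotypes, by at least 2-fold in WT, with the start of the gene just after the last base. Col6a1 and Col18a1 also passed in both. They are not shown, because an entry had to be single and start where the annotated gene does, and the change had to reach 2-fold. Sequences are from RefSeq (GRCm38.p6), 5′ to 3′ on the strand of the gene, 250 bases each, and capitals mark CAGAC or its reverse complement GTCTG, the core letters bound by SMAD proteins, the transcription factors of the TGF-β pathway. Higher with TGF-β2 were Col5a3 (chr9:20815068-20815317, minus strand), Col7a1 (chr9:108953336-108953585, plus strand) and Col11a1 (chr3:114030290-114030539, plus strand), and lower were Col3a1 (chr1:45311288-45311537, plus strand) and Col24a1 (chr3:145292222-145292471, plus strand).
Col5a3: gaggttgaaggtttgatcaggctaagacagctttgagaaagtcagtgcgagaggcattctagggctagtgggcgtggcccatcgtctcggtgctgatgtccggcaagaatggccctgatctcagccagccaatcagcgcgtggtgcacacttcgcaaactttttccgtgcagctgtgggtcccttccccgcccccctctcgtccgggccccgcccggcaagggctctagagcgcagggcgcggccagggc
Col7a1: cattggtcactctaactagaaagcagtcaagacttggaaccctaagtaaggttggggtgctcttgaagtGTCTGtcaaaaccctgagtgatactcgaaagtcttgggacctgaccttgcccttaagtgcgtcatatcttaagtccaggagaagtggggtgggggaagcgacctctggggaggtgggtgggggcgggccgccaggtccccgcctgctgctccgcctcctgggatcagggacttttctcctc
Col11a1: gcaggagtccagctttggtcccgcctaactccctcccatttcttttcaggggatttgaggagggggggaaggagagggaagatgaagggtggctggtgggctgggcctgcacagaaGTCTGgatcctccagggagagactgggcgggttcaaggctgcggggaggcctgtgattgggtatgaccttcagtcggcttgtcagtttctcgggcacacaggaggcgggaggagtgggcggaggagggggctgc
Col3a1: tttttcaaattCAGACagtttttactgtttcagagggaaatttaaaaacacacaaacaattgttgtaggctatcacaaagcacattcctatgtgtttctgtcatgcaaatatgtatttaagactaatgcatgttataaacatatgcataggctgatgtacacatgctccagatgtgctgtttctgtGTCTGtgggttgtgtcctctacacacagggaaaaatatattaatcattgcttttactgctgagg
Col24a1: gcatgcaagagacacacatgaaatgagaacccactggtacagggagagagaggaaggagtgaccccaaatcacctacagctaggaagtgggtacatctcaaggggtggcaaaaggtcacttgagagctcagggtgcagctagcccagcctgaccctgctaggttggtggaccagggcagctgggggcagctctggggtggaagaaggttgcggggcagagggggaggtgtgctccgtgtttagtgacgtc

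Col3a1 held these letters at 2 places (from 239 and 64 bases before the start), Col7a1 at 1 (from 181 bases), Col11a1 at 1 (from 134 bases), and Col5a3 and Col24a1 at 0. Such a match was common, since 42.2% of all 32851 promoter windows of 250 bases had at least 1 on either strand, as did 17 of the 35 collagen genes with an entry. TATAAA, the TATA box, was found in Col3a1 (12.4% of all windows), and CCAAT in Col5a3, Col7a1 and Col11a1 (33.8% of all windows). GGGCGG, the GC box, was present in the same 3 genes (32.7% of all windows) and TGANTCA, the AP-1 motif, in none of the 5 (6.75% of all windows). Both strands were searched, and no match in these 5 windows overlapped another. Guanine and cytosine made up 35.2% of the Col3a1 window and 56.4 to 62.8% of the other 4. A match describes letters and is not a bound site.

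Basement membrane genes gave 1 fall among 3 tested in WT (Col4a5) and no call among 4 in Nox4 KO without the block. Col4a1 and Col4a2 encode the ubiquitous type IV chains and are transcribed head to head on chromosome 8, where they overlap by 22 exon bases. Col4a1 was at 599.8, 586 and 442 RPKM in WT control, 554, 372 and 468 in WT with TGF-β2, 631, 554 and 422 in Nox4 KO control and 624, 521 and 514 in Nox4 KO with TGF-β2. These groups overlapped, with log2 fold changes of -0.16 ± 0.21 (SE, WT) and 0.13 ± 0.17 (Nox4 KO), beside -0.25 ± 0.20 and -0.01 ± 0.18 for Col4a2. The ratio of Col4a1 to Col4a2 RPKM was 1.31, 1.36 and 1.25 in WT control against 1.4, 1.42 and 1.37 with TGF-β2, and 1.39, 1.34 and 1.4 against 1.5, 1.47 and 1.57 in Nox4 KO. The ratio was thus higher in every stimulated library than in any control library of its genotype, a difference given as a description.

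Col4a5 encodes a type IV chain of more restricted basement membranes and lies head to head with Col4a6 on the X chromosome. Col4a5 stood at 39.3, 48.1 and 50.1 RPKM in WT control and 20.0, 15.0 and 26.2 with TGF-β2, and at 44.2, 36.8 and 70.2 RPKM in Nox4 KO control and 23.2, 22.0 and 44.2 RPKM in Nox4 KO with TGF-β2. The WT groups did not overlap, while in Nox4 KO replicate 3 was the highest in both groups and stimulated replicate 3 lay at the level of a control library. It was 2.14-fold lower in WT (log2 fold change -1.10 ± 0.22 (SE), adjusted p = 0.0142), where the call was lost without control replicate 2 (adjusted p = 0.0516) or stimulated replicate 1 (0.0526). In Nox4 KO it did not pass (log2 fold change -0.67 ± 0.34 (SE), adjusted p = 0.185), but did with the block (adjusted p = 0.00109), without stimulated replicate 3 (0.0371) and without both replicate 3 libraries (0.00847). Col4a6 was below the limit on low values in WT (it was tested there without the limit and with filterByExpr, and passed as lower) and ranged from 0.422 to 3.67 RPKM in Nox4 KO, where its log2 fold change was -0.997 ± 0.73 (SE, adjusted p = 0.335) and -0.97 ± 0.09 with the block (adjusted p = 0.00107).

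FACIT genes gave 1 fall among 3 tested in WT (Col14a1) and no call in Nox4 KO without the block. FACIT chains sit on the surface of fibrils. Col14a1 was at 2.22, 1.81 and 2.42 RPKM in WT control and 0.948, 0.529 and 0.705 with TGF-β2, and at 2.65, 2.53 and 0.612 RPKM in Nox4 KO control and 0.897, 1.10 and 0.264 RPKM in Nox4 KO with TGF-β2. Replicate 3 was lowest in both Nox4 KO groups, so these overlapped, whereas the WT groups did not. The gene was 2.81-fold lower in WT (log2 fold change -1.49 ± 0.25 (SE), adjusted p = 0.00823), although not in a fit of all 12 libraries (adjusted p = 0.0674). In Nox4 KO the log2 fold change was -1.28 ± 0.71 (SE, adjusted p = 0.213), and -1.26 ± 0.11 with the block (adjusted p = 0.000827).

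Col12a1, the most abundant FACIT chain here, was at 376, 327 and 369.8 RPKM in WT control, 232, 118 and 330.1 in WT with TGF-β2, 245, 287 and 338 in Nox4 KO control and 228, 230.2 and 323 in Nox4 KO with TGF-β2. Replicate 2 of stimulated WT was the lowest of the 12 libraries. Neither TGF-β2 comparison passed (-0.59 ± 0.35 in WT and -0.07 ± 0.17 in Nox4 KO, log2 fold change ± SE). Col16a1 ranged from 54.5 to 105 RPKM and had log2 fold changes of 0.47 ± 0.15 (SE, adjusted p = 0.0686) in WT and 0.46 ± 0.20 (adjusted p = 0.123) in Nox4 KO, where it passed with the block (adjusted p = 0.00187).

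Among the 9 other collagen genes tested, 2 rose (Col7a1 and Col8a2) and 3 fell (Col6a1, Col6a2 and Col18a1) in WT, and 1 rose (Col7a1) and 3 fell (Col6a1, Col18a1 and Col28a1) in Nox4 KO. Col7a1 encodes the chain of anchoring fibrils, which fasten the epidermis to the dermis. It stood at 7.32, 8.30 and 4.33 RPKM in WT control, 38.1, 19.7 and 27.0 in WT with TGF-β2, 6.97, 7.92 and 3.52 in Nox4 KO control and 43.6, 33.6 and 11.2 in Nox4 KO with TGF-β2. All stimulated libraries were above all control libraries of either genotype, and replicate 3 was the lowest in both Nox4 KO groups. The rise was 4.45-fold in WT (log2 fold change 2.15 ± 0.35 (SE), adjusted p = 0.00701), kept with any library left out, and 5.08-fold in Nox4 KO (log2 fold change 2.35 ± 0.56 (SE), adjusted p = 0.0267). The Nox4 KO call was lost on leaving out any control library or stimulated replicate 1 or 2 (adjusted p = 0.0630 to 0.0877) and kept without stimulated replicate 3 (0.00754).

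Type VI collagen forms beaded filaments around cells from chains encoded by Col6a1, Col6a2 and a longer one such as Col6a3. Col6a1 was at 405, 309 and 399 RPKM in WT control and 150.3, 124 and 124 with TGF-β2, and at 427, 349.8 and 252 RPKM in Nox4 KO control and 207, 140.0 and 94.8 RPKM in Nox4 KO with TGF-β2. Col6a2, on the same strand of chromosome 10 with 85161 bases between them, was at 206, 156 and 197 RPKM in WT control and 86.4, 67.3 and 70.2 RPKM with TGF-β2, and at 234, 181 and 113 RPKM in Nox4 KO control and 122, 82.0 and 50.5 RPKM in Nox4 KO with TGF-β2. Stimulated libraries were below every control library for both genes in WT and for Col6a1 in Nox4 KO, while Col6a2 overlapped there. Col6a1 was 2.67-fold lower in WT (log2 fold change -1.42 ± 0.16 (SE), adjusted p = 0.00207) and 2.20-fold lower in Nox4 KO (log2 fold change -1.14 ± 0.33 (SE), adjusted p = 0.0456). Col6a2 was 2.39-fold lower in WT (log2 fold change -1.25 ± 0.17 (SE), adjusted p = 0.00382) and did not pass in Nox4 KO (log2 fold change -0.97 ± 0.39 (SE), adjusted p = 0.11), but did with the block (adjusted p = 0.000357). The Nox4 KO call of Col6a1 was lost without control replicate 1 (adjusted p = 0.125) or 2 (0.116) and without stimulated replicate 2 (0.144) or 3 (0.0657), and with the filter of edgeR's filterByExpr (0.0507). Col6a3 ranged from 76.4 to 218 RPKM, with log2 fold changes of -0.23 ± 0.33 in WT and 0.36 ± 0.38 in Nox4 KO (SE), and passed only with the block in Nox4 KO, where it was higher (adjusted p = 0.0183). Col6a4, Col6a5 and Col6a6, which encode alternative long chains, had at most 15, 14 and 8 reads in a library.

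Col8a1 and Col8a2 encode the chains of the short-chain network collagen VIII. Col8a2 was at 9.46, 9.29 and 11.3 RPKM in WT control and 16.7, 18.2 and 20.0 with TGF-β2, and at 16.3, 8.97 and 7.36 RPKM in Nox4 KO control and 26.3, 16.3 and 15.7 RPKM in Nox4 KO with TGF-β2. The WT groups lay apart. In Nox4 KO, control replicate 1 reached the stimulated level in RPKM, but the groups did not overlap after TMM scaling. It rose 1.91-fold in WT (log2 fold change 0.93 ± 0.11 (SE), adjusted p = 0.00256) and did not pass in Nox4 KO (log2 fold change 0.92 ± 0.36 (SE), adjusted p = 0.0993), where it passed with the block (adjusted p = 0.000873) and without control replicate 1 (0.0388). Col8a1 was higher in level, at 60.4 to 168 RPKM, with log2 fold changes of -0.02 ± 0.22 in WT and 0.35 ± 0.40 in Nox4 KO (SE). Only the block in Nox4 KO gave it a call, as higher (adjusted p = 0.0120).

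Col15a1 and Col18a1 encode the multiplexins, proteoglycans next to basement membranes, of which Col18a1 yields endostatin. Col18a1 was at 5.61, 5.04 and 5.73 RPKM in WT control and 3.69, 2.88 and 3.23 with TGF-β2, and at 5.28, 4.48 and 4.37 RPKM in Nox4 KO control and 3.53, 2.91 and 2.88 RPKM in Nox4 KO with TGF-β2. No stimulated library reached a control library of its genotype. Its fall was 1.60-fold in WT (log2 fold change -0.68 ± 0.13 (SE), adjusted p = 0.0131) and 1.43-fold in Nox4 KO (log2 fold change -0.51 ± 0.12 (SE), adjusted p = 0.0254). In Nox4 KO the call was lost without control replicate 1 (adjusted p = 0.0739) or 2 (0.0684) and without stimulated replicate 2 (0.0987) or 3 (0.0517). Col15a1 varied from 4.44 to 22.1 RPKM and had log2 fold changes of 0.54 ± 0.41 in WT and 0.99 ± 0.53 in Nox4 KO (SE). It passed as higher with the block in both genotypes (adjusted p = 0.0219 in WT and 0.00335 in Nox4 KO).

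Col28a1, a minor collagen known from peripheral nerve, was at 4.11, 5.67 and 11.6 RPKM in WT control and 1.81, 1.70 and 4.63 with TGF-β2, and at 4.10, 5.11 and 4.07 RPKM in Nox4 KO control and 1.61, 2.41 and 1.76 RPKM in Nox4 KO with TGF-β2. In WT, replicate 3 was the highest in both groups, and these overlapped, while the Nox4 KO groups did not. It was 2.17-fold lower in Nox4 KO (log2 fold change -1.11 ± 0.19 (SE), adjusted p = 0.0107), and in WT the log2 fold change was -1.32 ± 0.52 (SE, adjusted p = 0.109). The WT value passed without stimulated replicate 3 (adjusted p = 0.0285) and with the replicate block (log2 fold change -1.35 ± 0.15, SE, adjusted p = 0.00254). In a fit of all 12 libraries the calls changed places, with an adjusted p of 0.0374 in WT and 0.0883 in Nox4 KO.

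Side by side, 25 collagen genes were tested in both genotypes, and 20 had the same direction, as did 78.6% of all genes tested in both. Of these 25, 7 passed in both (Col3a1, Col5a3, Col6a1, Col7a1, Col11a1, Col18a1 and Col24a1), all in the same direction, and 5 changed at least 2-fold in both. Of all genes, 16.8% passed in both in the same direction, and 5.34% did so with at least 2-fold in both. Another 4 (Col4a5, Col6a2, Col8a2 and Col14a1) passed in WT alone and 1 (Col28a1) in Nox4 KO alone, which by itself does not show a difference between genotypes. With the replicate block, these 4 passed in Nox4 KO too, and Col28a1 passed in WT too (adjusted p = 0.00254). Across the 25 genes, log2 fold changes of the genotypes correlated with r = 0.98 (Pearson) and rho = 0.95 (Spearman), beside 0.92 and 0.81 over all genes tested in both. This is a description across genes, which are not independent replicates and share the libraries of each genotype.

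**Figure D4:**
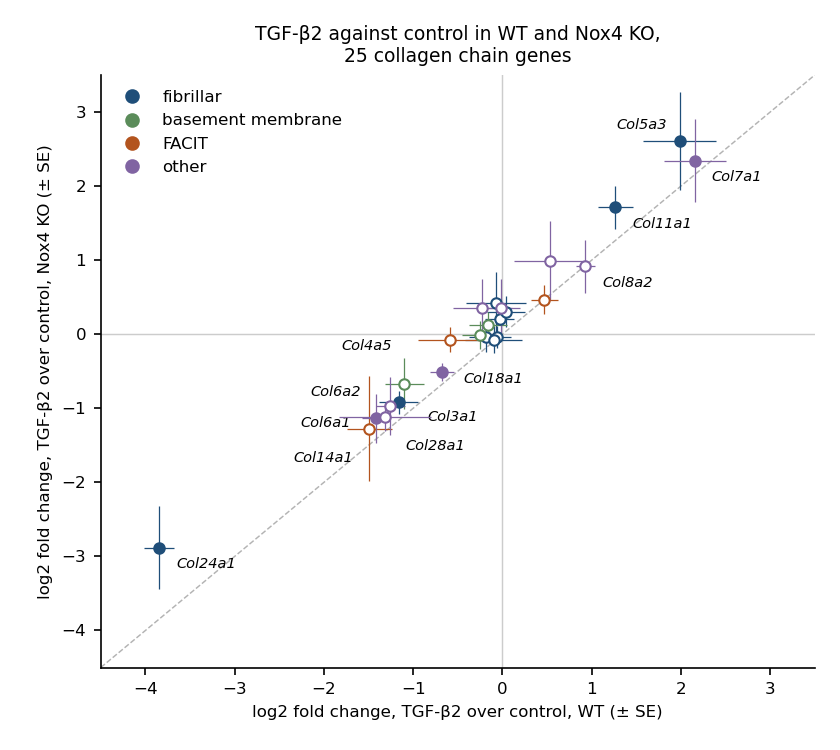
Log2 fold change with TGF-β2 in WT (horizontal axis) against Nox4 KO (vertical axis) for the 25 collagen chain genes tested in both, with SE bars, coloured by class. Filled points are the 7 that passed in both genotypes, named open points passed in 1 without the replicate block, and the dashed line marks equal change. Col24a1 lies at -3.84 and -2.88, and Col7a1 at 2.15 and 2.35.

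The direct comparison of genotypes addressed whether loss of Nox4 changes expression. No collagen gene passed between Nox4 KO and WT, either unstimulated (0 of 26) or with TGF-β2 (0 of 23), with edgeR's quasi-likelihood test, and DESeq2 also called 0 in each. Over all genes, 0% passed in either comparison, although the study itself, also with edgeR, reported a small number of genes. Nox4 itself did not pass in control in the quasi-likelihood test (log2 fold change -0.99 ± 0.37, SE, adjusted p = 0.828). The 0 calls therefore do not show that the genotypes are alike. At an unadjusted p under 0.05 there were 2 collagen genes in control (5.54% of all genes) and 1 after TGF-β2 (3.23%). Libraries of the genotypes did not overlap for 2 genes in control, Col5a2 and Col12a1, both lower in Nox4 KO (12.0% of all genes), and for 0 after TGF-β2 (10.5%). In control, 19 of the 26 genes were lower in Nox4 KO, with a median log2 fold change of -0.12 (all genes 0.00), and after TGF-β2 18 of the 23 were higher, with a median of 0.17 (all genes 0.00).

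The smallest p-values in control belonged to Col18a1, Col12a1 and Col5a3. Col18a1 had a log2 fold change of -0.25 ± 0.10 (SE), with an adjusted p of 0.828 in edgeR's test, and Col12a1 one of -0.34 ± 0.14. For Col12a1 the WT control libraries (376, 327 and 369.8 RPKM) and Nox4 KO control libraries (245, 287 and 338 RPKM) overlapped in RPKM but not after TMM scaling. Col5a3 had -0.66 ± 0.28 and overlapped. After TGF-β2 they belonged to Col11a1, Col4a5 and Col4a1. Col11a1 was at 0.69 ± 0.24 (SE, 95% interval 0.12 to 1.26, adjusted p = 0.838), Col4a5 at 0.56 ± 0.33 and Col4a1 at 0.26 ± 0.19. For Col1a1 the 95% interval of the difference was -0.31 to 0.50 (log2) in control and -0.22 to 0.52 after TGF-β2.

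Whether the TGF-β2 effect itself differed between genotypes was tested as an interaction over all 12 libraries. None of 26 collagen genes passed (adjusted p of at least 0.854), none had an unadjusted p under 0.05, and DESeq2 called 0. Over all 10890 genes, 0% passed and 2.68% had an unadjusted p under 0.05. The difference, the log2 fold change in Nox4 KO minus that in WT, was above 0 for 26 of 26 genes, with a median of 0.30, whereas 50.2% of all genes were above 0, with a median of 0.00. The 26 values rest on the same 12 libraries. On leaving out single libraries the number above 0 went down to 19 (without stimulated Nox4 KO replicate 1) and 21 (without stimulated WT replicate 2 or Nox4 KO control replicate 3). The median went down to 0.14 (without stimulated WT replicate 2) and up to 0.48 (without stimulated WT replicate 1). The number above 0 was 23 with scaling by library size alone, where the median of all genes was -0.06, and 25 without a filter on low values.

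Col24a1 had the smallest p and the largest difference of the 26 (1.00 ± 0.60, SE, 95% interval -0.32 to 2.31), followed in p by Col5a2 (0.27 ± 0.18, -0.13 to 0.68) and Col11a1 (0.48 ± 0.37, -0.33 to 1.30). Each interval included 0. The widest intervals were those of Col4a6 (-1.52 to 2.18) and Col5a3 (-1.12 to 2.43), and the narrowest were those of Col18a1 (-0.21 to 0.60) and Col5a2.

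**Figure D5:**
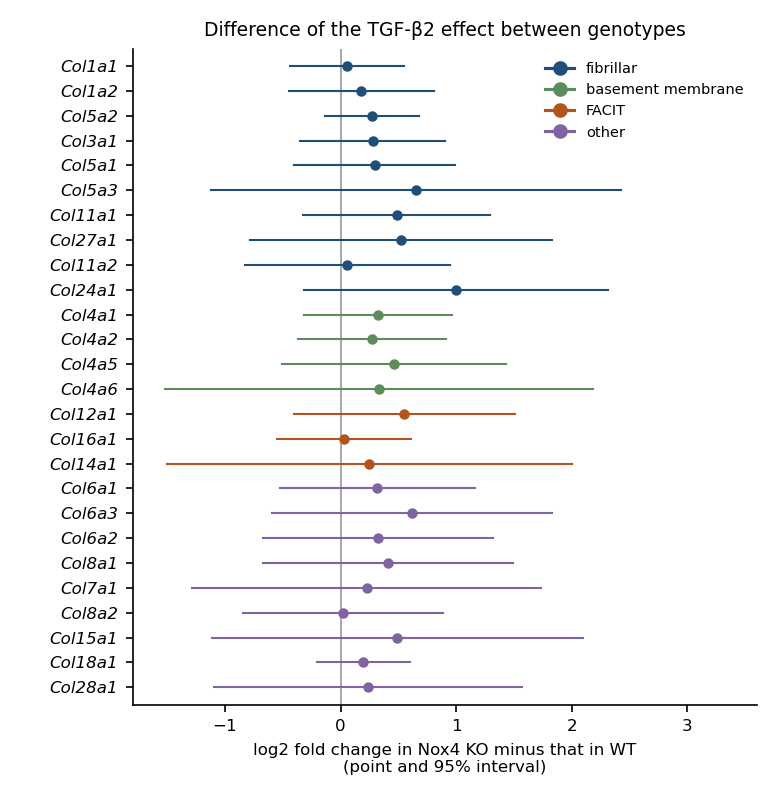
Log2 fold change with TGF-β2 in Nox4 KO minus that in WT for the 26 collagen chain genes tested, as points with 95% intervals, coloured by class. All 26 points are right of 0, and all 26 intervals include 0.

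Genes that act on collagen were described from lists written by hand. In WT, of 21 tested genes of folding and modification 8 rose and 1 fell, of 11 of trimming and cross-linking 6 rose and 1 fell, and of 11 receptors, uptake receptors and collagenases 2 rose and 2 fell. In Nox4 KO the counts were 10 and 2, 7 and 1, and 3 and 1. Of all genes, as above, 12.4% rose and 11.7% fell in WT, and 15.1% and 14.9% in Nox4 KO. The median log2 fold changes of the lists were 0.25, 0.62 and 0.09 in WT and 0.29, 0.65 and 0.20 in Nox4 KO, beside 0.02 and -0.01 over all genes tested. None of these genes passed between genotypes, whether unstimulated or stimulated, or in the interaction.

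P3h1, a prolyl 3-hydroxylase, rose from 59.9 ± 1.36 to 86.5 ± 2.83 RPKM in WT (mean ± SD, n = 3, log2 fold change 0.59 ± 0.08 (SE), adjusted p = 0.00451) and from 58.0 ± 2.15 to 81.9 ± 2.49 RPKM in Nox4 KO (log2 fold change 0.58 ± 0.07 (SE), adjusted p = 0.00405). Fkbp10, a collagen chaperone, had log2 fold changes of 0.59 and 0.48, and Creb3l1, a transcription factor of the secretory pathway that acts on collagen genes, of 0.59 and 0.52, and all 4 passed. Among the trimming genes, Lox, a lysyl oxidase that cross-links fibrils, rose from 879 ± 44.3 to 1293 ± 259 RPKM in WT (log2 fold change 0.62 ± 0.18 (SE), adjusted p = 0.0470) and from 789 ± 61.5 to 1269 ± 96.2 RPKM in Nox4 KO (log2 fold change 0.77 ± 0.09 (SE), adjusted p = 0.00425). The procollagen C-proteinase enhancers differed: Pcolce2 rose in both (log2 fold change 1.35 and 1.24), and Pcolce fell in Nox4 KO (-0.70, adjusted p = 0.00334) and had -0.51 in WT (adjusted p = 0.0502). Of the receptors, Ddr2, a collagen-binding kinase, fell in both (-1.13 and -0.72), Itga1, a collagen-binding integrin chain, fell in WT (-0.71) and did not pass in Nox4 KO (-0.45, adjusted p = 0.202), and Mmp14, a membrane collagenase, rose in both (0.95 and 1.04).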

How the data were processed

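The authors aligned reads to GRCm38 (Ensembl release 96) with STAR 2.4, left out multi-mapping ones, and used featureCounts 1.4.6 over the merged exons of each gene's coding isoforms. They deposited raw counts for 21556 genes, and every column was assigned to a sample by its label. From these counts, RPKM was computed with exon lengths of GENCODE M21, and comparisons were fitted with edgeR 4.0.16 in R 4.3.3 (TMM, quasi-likelihood test, library totals as library sizes, genes with at least 1 RPKM in a group mean, Benjamini-Hochberg adjustment over all genes kept). The SE was derived from the F statistic, and intervals use its t distribution. DESeq2 1.42.0 was an alternative. The members, the lists and the naming rule (collagen genes passing with TGF-β2, the 5 highest, the 3 smallest p per genotype comparison, and 3 genes per handling list) were chosen with earlier results of these data known. The fit was tested on simulated counts. In Nox4 KO, deviations from the group mean correlated between the control and the stimulated library of each number (r = 0.773, 0.684 and 0.748 over 10890 genes), so the numbers pair them. The pairing comes from this check, as no source states it. Per gene depth is given as reads or RPKM, and 3 counts in the smallest library are 0.0427 RPKM for a gene of 2 kb. Of the 44 genes, 35 matched a RefSeq promoter entry.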

Additional observations from a re-analysis of the deposited data

How the results depend on the processing

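The counts of collagen genes passing in WT (11, and 9 to 12 on leaving out each library) and the 0 calls in the genotype comparisons and in the interaction stayed within 1.5 times of these counts under DESeq2, RLE size factors, library size alone, scaling without the collagen genes, no filter, filterByExpr, a fit of all 12 libraries and the replicate block (13 in WT). In Nox4 KO, 8 passed, and 7 to 11 under these alternatives other than the replicate block, which gave 18. Leaving out each Nox4 KO library gave 3 to 8. The lowest counts were 5 without control replicate 1, 4 without control replicate 2 and 3 without stimulated replicate 2, and the cause was not tested. Without the 5 most counted other genes the collagen share of WT control was 5.87% in place of 5.48%, since the total is smaller. Over the 348 alternative values of the 12 collagen genes that passed in either genotype, 305 kept direction and side of the limit, 27 lost and 16 gained a call, and 0 changed direction. Of the other collagen genes tested, 7 of 13 in WT and 7 of 14 in Nox4 KO changed direction in some alternative, among them Col1a1 in both. In WT the same-numbered libraries correlated with r = 0.0746, 0.437 and 0.532 over all genes. Control replicate 1 correlated better with another number there, and the main WT test did not take the numbers as pairs. Over the collagen genes alone the same-numbered values were 0.819, 0.332 and 0.599, each above the 0.0762 or less of other numbers. The summed myeloid markers also ranked the replicates alike in both WT groups, so pairing by number in WT is not settled. In WT the block kept the 11 calls and added Col15a1 and Col28a1, so with it all 12 genes passed in both genotypes. The share of all genes called in that WT fit is not given here. The block changed no call between genotypes. With 3 libraries a group, spread between libraries limits what could be called.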
